A study of Mus musculus with 4 samples.

Results

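The contractile and SRF target genes examined here are 10 genes of the actin cytoskeleton and of its control: Acta2, Tagln, Myl9, Cnn1, Cnn2, Tpm1, Tpm2, Actn1, Vcl and Srf. Their chromatin was followed with ATAC-Seq, where Tn5 transposase places sequencing adapters into open DNA, so that the reads over a region report its accessibility. An accessible region, called a site here, was assigned to a gene when it overlapped the body of the gene or lay within 20 kb of its transcription start site (TSS), taken as the 5′ end of the gene model. This rule used position only and gave 67 sites of the 82325 in the whole table, between 1 site for Myl9 and 13 sites each for Actn1 and Vcl. Every member gene had at least 1 site, and no site was filtered out.

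The libraries came from mouse embryonic fibroblasts (MEFs) on a C57bl6 background, immortalized with the SV40 large T antigen and grown in DMEM with fetal bovine serum. HAT1, the acetyltransferase of newly made histone H4, was intact in the HAT1 WT lines (Hat1+/+) and knocked out in the HAT1 KO lines (Hat1-/-), and loss was constitutive from the embryo onwards. WT replicates 1 and 2 were the lines 643CT and 78T, and KO replicates 1 and 2 were the lines 41T and 643BT, numbered in accession order. Each library was 1 line, so with 2 lines per genotype the loss of HAT1 and whatever else the KO lines share cannot be told apart. In such bulk libraries, fewer cells with an open site and less accessibility per cell cannot be told apart either. MEFs were derived from mid-gestation embryos stripped of their internal organs, and such cultures can hold more than 1 mesenchymal cell type. All values below are normalized counts, which are read counts that the authors divided by a factor per library and rounded, and values joined by "and" are given in the order replicate 1 and replicate 2.

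The WT libraries held about 9430000 and 11400000 reads within sites, against 7830000 and 5680000 in the KO libraries, so counting error was larger in the KO libraries. The sites at the 5′ ends of fibroblast marker genes were open, with 10 of 11 markers having such a site (Pdgfra had none) and a summed value of 2953 and 3333 in WT and 3279 and 3517 in KO. The largest parts of this sum were Vim (759 and 810 in WT, 977 and 919 in KO) and Fn1 (602 and 675 in WT, 610 and 701 in KO). The lowest were Thy1 (35 and 150 in WT, 61 and 69 in KO), Prrx1 (68 and 134 in WT, 129 and 114 in KO) and Col3a1 (83 and 126 in WT, 86 and 156 in KO). The lists differ in their number of sites, so their sums do not rank them. Of 7 markers of differentiated smooth muscle, 5 had a site at the 5′ end, with sums of 587 and 542 in WT and 592 and 587 in KO, and Des and Actg2 had none. Most of these sums came from Smtn (344 and 357 in WT, 392 and 338 in KO), while Myh11 had 36 and 29 in WT and 31 and 45 in KO. The skeletal muscle genes Myod1, Myf5, Myog and Myh3 had no such site, and Ckm had 80 and 63 in WT and 80 and 93 in KO. Endothelium had sites at 3 of 5 markers (sums from 203 to 312 over the 4 libraries), epithelium at 4 of 6 (130 to 232), blood at 2 of 5 (172 to 237) and neural cells at 3 of 5 (283 to 343), and in each of these lists the genotypes overlapped. At the 5′ end of Hat1 itself the site held 390 and 384 in WT and 438 and 368 in KO, a measure of promoter accessibility that does not check the deletion.

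SRF, serum response factor, is a transcription factor that binds the CArG box, which is CC, then 6 bases that are each A or T, then GG. It works with myocardin-related transcription factors (MRTFs), which are held in the cytoplasm by monomeric actin and move to the nucleus when actin polymerizes, and, at other targets, with the ternary complex factors of the Elk family, which respond to growth factor signalling. Among the best known targets of SRF are genes for the contractile apparatus, for focal adhesions and for SRF itself, and in fibroblasts they are the genes that mark the change to a contractile myofibroblast.

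In the 250 bases before the 5′ end, an exact box was present in 5 of 10 member genes (50%), against 292 of 21911 protein-coding genes (1.33%). This describes genes that were listed as SRF targets, and a match is not by itself a bound site. The reverse complement of a box is again a box, so the search covered both strands. Of the genes with a box, Cnn2 had no site within 1 kb of its 5′ end. The 5 windows with an exact box are printed, since those other than that of Cnn2 lie within a promoter site. They are from GRCm38 (mm10) and are written 5′ to 3′ along the gene, ending at the last base before the 5′ end, with each CArG box in capitals (for Myl9, the second capital stretch differs from a box by 1 C or G in the core).
Tagln, chr9:45936059-45936308, minus strand: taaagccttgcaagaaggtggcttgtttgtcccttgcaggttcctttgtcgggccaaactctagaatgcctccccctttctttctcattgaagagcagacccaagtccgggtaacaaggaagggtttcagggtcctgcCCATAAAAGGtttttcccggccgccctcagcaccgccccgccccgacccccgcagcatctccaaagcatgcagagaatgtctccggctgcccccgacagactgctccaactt
Myl9, chr2:156775170-156775419, plus strand: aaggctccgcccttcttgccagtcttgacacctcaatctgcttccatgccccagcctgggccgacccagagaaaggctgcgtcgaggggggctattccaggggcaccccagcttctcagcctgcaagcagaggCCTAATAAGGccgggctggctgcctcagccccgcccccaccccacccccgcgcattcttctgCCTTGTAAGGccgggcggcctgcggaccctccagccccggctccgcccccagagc
Cnn2, chr10:79988334-79988583, plus strand: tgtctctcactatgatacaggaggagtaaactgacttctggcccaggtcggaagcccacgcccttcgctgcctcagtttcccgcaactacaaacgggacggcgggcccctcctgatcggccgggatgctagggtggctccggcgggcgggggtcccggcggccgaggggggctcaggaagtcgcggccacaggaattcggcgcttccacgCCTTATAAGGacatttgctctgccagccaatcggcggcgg
Vcl, chr14:20929148-20929397, plus strand: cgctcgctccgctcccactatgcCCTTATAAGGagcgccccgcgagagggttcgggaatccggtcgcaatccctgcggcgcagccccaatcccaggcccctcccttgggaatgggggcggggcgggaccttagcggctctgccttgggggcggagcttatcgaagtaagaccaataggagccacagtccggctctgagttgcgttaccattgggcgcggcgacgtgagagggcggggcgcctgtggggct
Srf, chr17:46556176-46556425, minus strand: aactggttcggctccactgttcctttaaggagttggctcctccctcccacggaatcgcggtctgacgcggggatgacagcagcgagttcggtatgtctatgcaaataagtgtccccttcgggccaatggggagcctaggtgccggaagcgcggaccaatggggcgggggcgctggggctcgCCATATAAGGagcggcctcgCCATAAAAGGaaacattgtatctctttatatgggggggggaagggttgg

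Tagln carried CCATAAAAGG at 112 to 103 bases before its 5′ end, and Myl9 carried CCTAATAAGG at 117 to 108 bases with the near match CCTTGTAAGG at 55 to 46 bases. Cnn2 carried CCTTATAAGG at 40 to 31 bases, and Vcl carried the same letters at 227 to 218 bases. Srf carried a pair of boxes, CCATATAAGG at 69 to 60 bases and CCATAAAAGG at 49 to 40 bases, the arrangement through which SRF is known to act on its own gene. No exact box lay in the windows of Acta2, Cnn1, Tpm1, Tpm2 and Actn1, which says only that these letters were not in that stretch.

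For Acta2 the RefSeq start lies 217 bp downstream of the GENCODE 5′ end, and the promoter window of RefSeq (GRCm38.p6) held 2 near matches with 1 C or G in the core, at 84 to 75 and 34 to 25 bases before the RefSeq start. RefSeq windows were found for 9 of the 10 members, and 4 of these held an exact box. For the other members with a window, the RefSeq start lay between 0 bp (Vcl) and 211 bp (Tpm2) downstream, with 193 bp for Tpm1. Distances before the 5′ end therefore depend on the gene model. The RefSeq windows of Tpm1 and Tpm2 held no exact box. The 2 near matches are shown with 10 bases on each side, the CArG-like letters in capitals, because imperfect boxes of this kind are a known feature of the smooth muscle actin promoter.
Acta2 farther match, chr19:34255438-34255467, minus strand: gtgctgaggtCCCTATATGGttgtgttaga
Acta2 nearer match, chr19:34255388-34255417, minus strand: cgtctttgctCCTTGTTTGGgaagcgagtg

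Boxes also lay away from the promoters. The site of Acta2 centred 10.3 kb upstream held CCTTATAAGG, and an intronic site of Srf held CCATATAAGG at 2813 bp past the 5′ end, the same letters as its promoter box. Both are printed with 25 bases on each side and the box in capitals, since these sites are described with their values further on.
Acta2 upstream site, chr19:34265809-34265868, minus strand: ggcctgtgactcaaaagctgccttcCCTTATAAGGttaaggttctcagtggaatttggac
Srf intron, chr17:46553328-46553387, minus strand: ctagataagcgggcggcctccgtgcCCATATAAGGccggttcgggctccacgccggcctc

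Across all 67 member sites, the central 300 bases held an exact CArG box in 7 (10.4%), against 1.81% of all sites in the table. Whole sites gave 9 of 67 (13.4%) against 2.88%, and sites over the 5′ end gave 4 of 9 (44.4%) against 2.99% of the 9771 sites over a protein-coding 5′ end. By comparison, letters of the AP-1 motif (TGANTCA, both strands) were in the central 300 bases of 34.3% of member sites and 37.7% of all sites, and those of the TEAD motif (GGAATG, both strands) in 20.9% and 24.7%. Matches of different motifs were counted separately and could overlap. The median GC content of the central window was 52% in member sites and 48.3% in all sites, and the share of boxes was not set against windows matched for base composition.

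The question for the comparison of genotypes was whether these open regions differed in accessibility without HAT1. None of the 67 member sites passed the call rule used here, an unadjusted p under 0.01 together with a log2 fold change of 1 or more in either direction, in limma on log2(value + 1): 0 were called lower and 0 were called higher in KO, where 0.373% of all 82325 sites were called. At an unadjusted p under 0.05 there were 3 member sites, against 3.13% of all sites, and after Benjamini-Hochberg adjustment over all sites there was none, among members or in the table. The log2 fold change of KO over WT ran from -0.76 to 0.69 over the member sites, inside the range from -0.98 to 0.67 that held the middle 90% of all sites except at 1 site of Srf. Its median was 0.07 (-0.01 after quantile normalization), with 38 sites above 0 and 29 below, beside a median of 0.01 over all sites and 0.06 over the better covered sites, those not below the table's median in mean value. Precision sets a limit here, since the SE of a member site's log2 fold change lay between 0.10 for the promoter of Actn1 and 0.61 for a weak site downstream of Tagln.

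Both KO values were below both WT values at 9 of 67 member sites (13.4%), where 14.3% of all sites had this order, and both were above at 15 (22.4%), where 14.6% of all sites did. Among the better covered sites, a class that held 52 of the 67 member sites, the share was 10.2% below and 19.6% above. At the remaining 43 member sites the genotypes overlapped. The split of 9 below and 15 above depended on the scaling, being 14 and 10 with equal library totals, 12 and 9 after quantile normalization and 7 and 19 when each chromosome was centred. An exact permutation test of 2 against 2 lines cannot give a two-sided p below 0.33, so none is given for single sites.

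**Figure D1:**
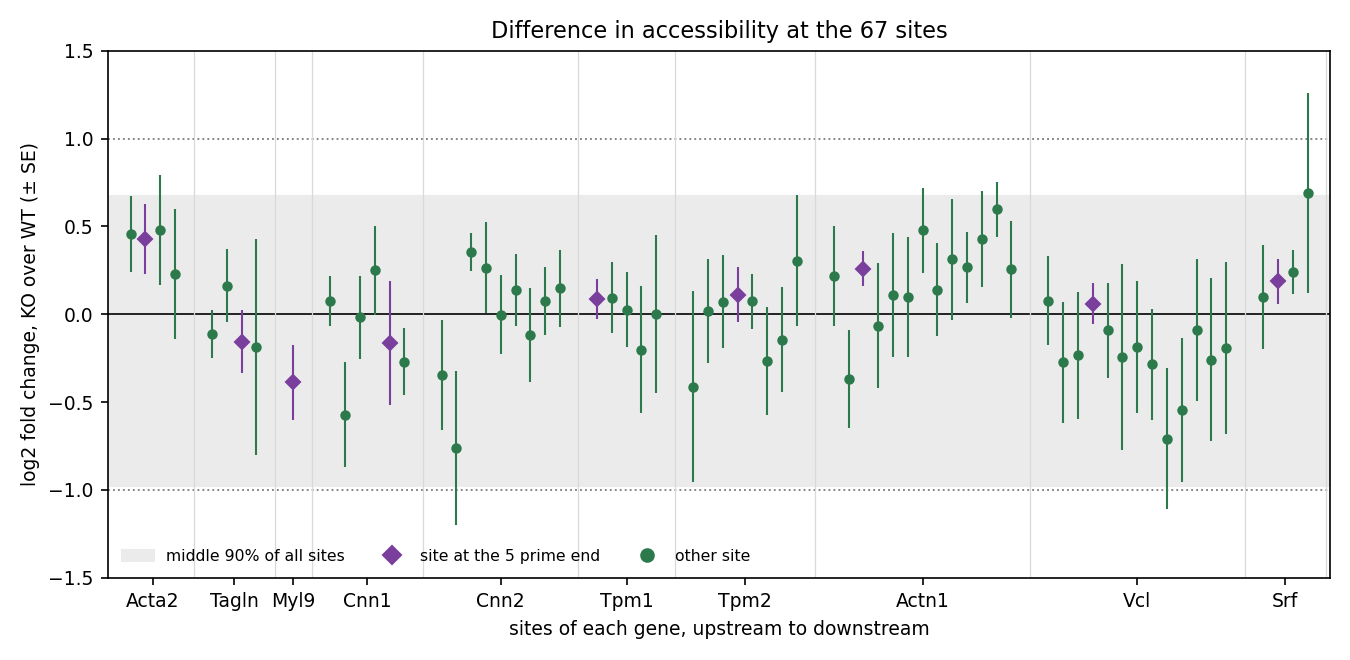
Log2 fold change of KO over WT, with its SE, at each of the 67 sites, ordered from upstream to downstream within each gene; purple diamonds are the sites at the 5′ end, the grey band holds the middle 90% of all sites, and the dotted lines mark a log2 fold change of 1 in either direction. No point reaches a dotted line, and the sites of Acta2 and Srf all lie above 0 whereas 11 of the 13 of Vcl lie below it. The values are as deposited and not centred on the chromosome.

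In the values as deposited, the share of sites above 0 differed between the member genes. How far it differs between genes in the whole table was not counted. All 4 sites of Acta2 and all 4 of Srf had a positive log2 fold change, as did 11 of 13 for Actn1 and 4 of 5 for Tpm1, whereas it was negative at 11 of 13 sites of Vcl, 4 of 6 of Cnn1, 3 of 4 of Tagln and the single site of Myl9. Cnn2 had 5 of 9 and Tpm2 5 of 8 sites above 0. The positive values of Tpm1 were small, the highest being 0.09. Sites of 1 gene share their chromosome and their neighbourhood and are not independent of each other. The median log2 fold change of all sites was -0.18 on chromosome 14, which holds Vcl, and 0.23 on chromosome 19, which holds Acta2. With each library centred on the median of each chromosome, 44 of the 67 sites lay above 0 instead of 38. The counts per gene were not taken again after centring. To give 1 value per gene and library, the values of all sites of a gene were summed, and the same was done for all 17775 protein-coding genes with a site, among which neighbours share sites.

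No member gene was called on its sum, where 0.332% of all genes were, and the adjusted p of the 10 sums lay between 0.92 and 0.973 (limma, Benjamini-Hochberg over all genes). At an unadjusted p under 0.05 there was 1 member, Acta2, against 4.15% of all genes. Both KO sums lay above both WT sums for 4 members (Acta2, Cnn2, Actn1 and Srf), where 23.3% of all genes had this order, and both lay below for 3 (Tagln, Myl9 and Cnn1), where 11.4% did. Tpm1, Tpm2 and Vcl overlapped. The median log2 fold change of the 10 sums was 0.05, the same to 2 decimals as over all genes, of which 10761 of 17775 had a positive value.

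**Figure D2:**
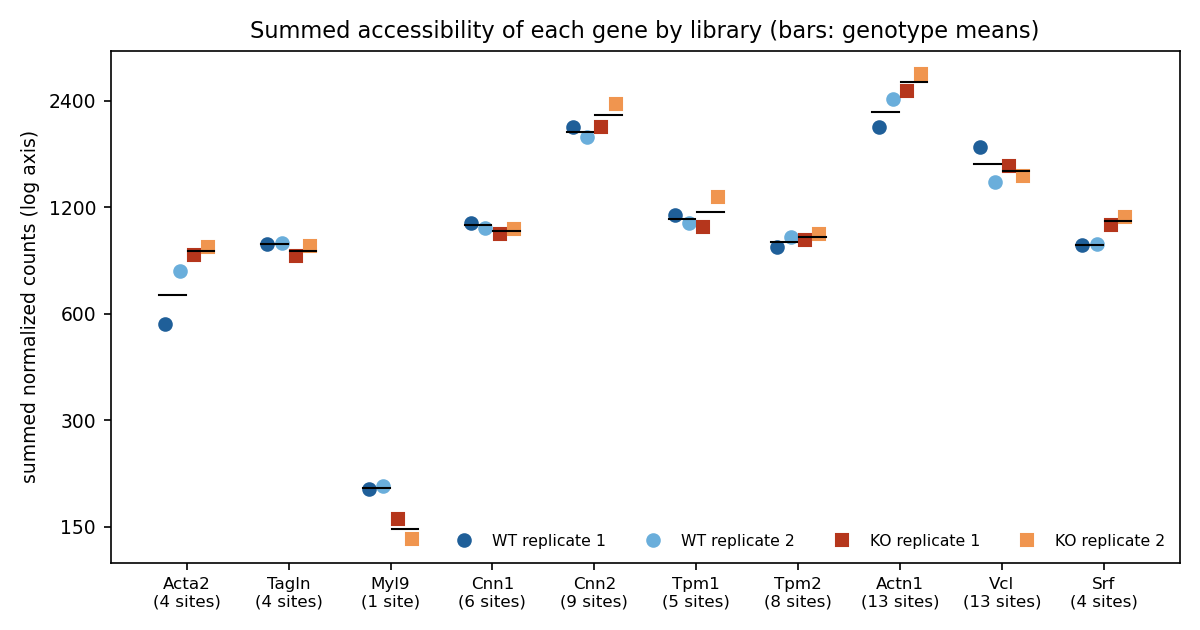
Summed normalized counts over all sites of each gene, on a log axis, in each of the 4 libraries; circles are WT, squares are KO and black bars are the means of each genotype. On this axis the spread within WT is widest for Acta2 (563 and 794), and the WT values of Srf (939 and 944) sit together below both KO values (1071 and 1125).

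Among the actin and myosin genes, Acta2 encodes smooth muscle alpha-actin, the usual mark of a myofibroblast. Its 4 sites summed to 563 and 794 in WT and 878 and 929 in KO. Both KO lines were above both WT lines, but the gap between the WT lines was larger than that between WT replicate 2 and either KO line. The log2 fold change of the sum was 0.43 ± 0.18 (SE), with an unadjusted limma p of 0.0486 and an adjusted p of 0.92. Without WT replicate 1 it was 0.19 with an unadjusted p of 0.262, and without WT replicate 2 it was 0.68 with an unadjusted p of 0.0103, so the size of the difference rested on WT replicate 1.

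At the Acta2 promoter (chr19:34254437-34255998, 1562 bp over the 5′ end and the first exon) the site held 323 and 477 in WT and 505 and 553 in KO, a log2 fold change of 0.43 ± 0.20 (SE; unadjusted p = 0.0712). The upstream site with the exact CArG box printed above (chr19:34265552-34266166) held 154 and 207 in WT and 246 and 245 in KO, with 0.46 ± 0.22 (SE; unadjusted p = 0.0794). At both sites, in the values as deposited, the KO lines were close to each other and above the WT lines, and WT replicate 1 was the lowest library. Without it the log2 fold changes were 0.15 and 0.25. An intronic site 11291 bp past the 5′ end held 55 and 74 in WT and 84 and 95 in KO, again without overlap, and the last, an exonic site, held 31 and 36 in WT and 43 and 36 in KO.

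Chromosome 19 as a whole stood apart in 1 KO line. The median log2 value of its sites in KO replicate 1 lay 0.36 above the mean of the medians of the 4 libraries, and the median log2 fold change over chromosome 19 was 0.23. In KO replicate 2 the same difference was -0.15, so centring moves the 2 KO lines apart. After each library was centred on the median of each chromosome, the Acta2 sum had a log2 fold change of 0.23 ± 0.25 (SE; unadjusted p = 0.387). The promoter site then had 0.22 ± 0.27 and the upstream site with the CArG box 0.25 ± 0.26 (SE). Means over 25 consecutive sites around the Acta2 sites lay between 0.23 and 0.28, close to the median of the chromosome.

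Myl9 encodes the regulatory light chain of smooth muscle and non-muscle myosin, whose phosphorylation switches the motor on. Its only site, which covers the 5′ end and both CArG-like stretches printed above (chr2:156774822-156775767), held 192 and 195 in WT and 158 and 138 in KO. The WT lines were nearly equal and above both KO lines. The log2 fold change of -0.39 ± 0.21 (SE) had an unadjusted p of 0.116 in the fit of sites, and it was the most negative of the 9 promoter sites and of the 10 sums. Centring on the chromosome left -0.33 ± 0.20 (SE) for the sum.

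Tagln and the calponins bind along actin filaments. Tagln encodes transgelin (SM22-alpha), an early marker of the smooth muscle lineage. Its 4 sites summed to 943 and 951 in WT and 874 and 931 in KO, a log2 fold change of -0.07 ± 0.11 (SE; unadjusted p = 0.534). The promoter site (chr9:45935441-45936363), which holds the printed CArG box and another at 11 bases past the 5′ end, gave 334 and 329 in WT and 260 and 340 in KO. KO replicate 1 was the low library there and KO replicate 2 lay above both WT lines, so the genotypes overlapped (log2 fold change -0.16 ± 0.18, SE). A second site centred 978 bp upstream had 171 and 156 in WT and 178 and 188 in KO. The site with the highest total value near Tagln, 407 and 446 in WT and 423 and 367 in KO, covers the 5′ end of Sidt2 instead.

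Cnn1 encodes calponin 1, a late marker of contractile smooth muscle. Its promoter site (chr9:22098980-22099402) was weak, with 87 and 74 in WT and 91 and 56 in KO, the last being the lowest and the first KO value the highest of the 4. Sums over its 6 sites were 1083 and 1052 in WT and 1010 and 1044 in KO (log2 fold change -0.06 ± 0.10, SE), and much of this signal belonged to sites over other genes' 5′ ends, those of Ecsit (348 and 370 in WT, 352 and 406 in KO) and Elof1 (263 and 222 in WT, 193 and 208 in KO). An upstream site centred 11.7 kb before the 5′ end held 86 and 108 in WT and 66 and 63 in KO, with the KO lines below the WT lines (log2 fold change -0.57 ± 0.30, SE; unadjusted p = 0.101).

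Cnn2 encodes calponin 2, the form found in many non-muscle cells. It was the 1 member with no site within 1 kb of its 5′ end, although the window upstream of it holds a CArG box. The nearest site upstream, ending 1287 bp before the 5′ end, held 171 and 206 in WT and 203 and 211 in KO. The nearest downstream, in an intron and beginning 1332 bp past the 5′ end, held 119 and 162 in WT and 121 and 135 in KO, and the genotypes overlapped at both. Its 9 sites summed to 2028 and 1897 in WT and 2030 and 2349 in KO. The KO values were above the WT values, by 2 normalized counts in the closest pair (log2 fold change 0.15 ± 0.12, SE; unadjusted p = 0.259), and the log2 fold change was 0.02 after quantile normalization and 0.05 without KO replicate 2. The strongest of its sites, centred 3.75 kb upstream (chr10:79984280-79985387), covers the 5′ end of Tmem259 and held 726 and 725 in WT and 840 and 1024 in KO (0.35 ± 0.11, SE; unadjusted p = 0.0162), the second lowest p among the members. After quantile normalization it was 0.12 (unadjusted p = 0.216), and centred on the chromosome it was 0.38 ± 0.08 (SE; unadjusted p = 0.00301). It was 0.21 without KO replicate 2 and 0.50 without KO replicate 1.

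The tropomyosins wind along the actin filament and set which myosins and binding proteins reach it. Tpm1 showed 612 and 612 at its promoter site (chr9:67048872-67050033) in WT and 594 and 710 in KO, with KO replicates on either side of the WT lines. Its sum over 5 sites was 1141 and 1085 in WT and 1054 and 1281 in KO (log2 fold change 0.06 ± 0.13, SE, and -0.07 after quantile normalization). A further site, 5482 bp past the 5′ end, overlaps the 5′ end of another annotated Tpm1 transcript and held 252 and 225 in WT and 208 and 283 in KO. At each of these the genotypes overlapped and KO replicate 2 was the highest library.

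For Tpm2 the promoter site (chr4:43523094-43523850) held 259 and 279 in WT and 285 and 296 in KO, without overlap and with a log2 fold change of 0.11 ± 0.16 (SE; unadjusted p = 0.506). A site in an exon 1309 bp past the 5′ end held 265 and 267 in WT and 283 and 277 in KO, also without overlap. Its upstream site with the CArG box CCAAAAAAGG gave 111 and 136 in WT and 116 and 144 in KO. The 8 sites summed to 929 and 992 in WT and 969 and 1007 in KO, so that the ranges overlapped (0.04 ± 0.11, SE, and -0.03 with equal library totals).

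Actn1 and Vcl encode proteins of the anchorage points of the actin cytoskeleton. Actn1 encodes alpha-actinin 1, which crosslinks actin filaments. Its 13 sites summed to 2022 and 2430 in WT and 2567 and 2858 in KO, with no overlap and a log2 fold change of 0.29 ± 0.14 (SE; unadjusted p = 0.0826), which was 0.16 without WT replicate 1, 0.42 without WT replicate 2 and 0.17 after quantile normalization. The promoter site (chr12:80259473-80261138) held 692 and 815 in WT and 878 and 920 in KO (0.26 ± 0.10, SE; unadjusted p = 0.0402). This value was 0.02 (unadjusted p = 0.824) after quantile normalization, and 0.14 without WT replicate 1 and 0.38 without WT replicate 2. The member site with the lowest p lay in an intron 39741 bp past the 5′ end (chr12:80220217-80221043) and held 239 and 265 in WT and 405 and 359 in KO. Both KO lines lay well above the WT lines, with a log2 fold change of 0.60 ± 0.16 (SE), an unadjusted limma p of 0.00846 and an adjusted p of 1. Over the other scalings and with 1 library left out, its log2 fold change lay between 0.49 and 0.68.

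Of the 13 sites, 11 had a positive log2 fold change, and 6 of these were the intronic sites between 25886 and 39741 bp past the 5′ end, a stretch picked after the values were seen. At 25886 bp the values were 127 and 175 in WT and 199 and 218 in KO, with no overlap. At 36607 bp they were 141 and 173 in WT and 171 and 260 in KO, and at 31071 bp 221 and 274 in WT and 265 and 332 in KO, with overlap at both. WT replicate 1 was the lowest library at each of the 6. On chromosome 12 the median log2 value in WT replicate 1 differed by -0.14 from the mean of the 4 medians, and the median log2 fold change of the chromosome was 0.09. Centred on the chromosome, the Actn1 sum had a log2 fold change of 0.21 ± 0.12 (SE; unadjusted p = 0.122).

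Vcl encodes vinculin, which links integrin and cadherin adhesions to actin. Its promoter site (chr14:20928848-20929804) was the strongest promoter of the members per length, at 732 normalized counts per kb, and held 755 and 620 in WT and 690 and 738 in KO. In the values as deposited, the WT lines lay on either side of the KO lines. The log2 fold change of this promoter site was 0.06 ± 0.12 (SE), and -0.14 after quantile normalization. It was 0.27 ± 0.08 (SE) when each library was centred on the median of each chromosome, so its direction and size depended on the scaling. The 13 sites summed to 1774 and 1416 in WT and 1570 and 1470 in KO, and again WT replicate 1 was the highest and WT replicate 2 the lowest. None of the 11 sites with a negative value had an unadjusted p under 0.05, the most negative being at 47488 bp past the 5′ end with 46 and 46 in WT and 22 and 35 in KO (-0.71 ± 0.40, SE; unadjusted p = 0.127).

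On chromosome 14 the median log2 value in WT replicate 1 lay 0.27 above the mean of the 4 medians, and the chromosome had a median log2 fold change of -0.18. Means over 25 sites around the Vcl sites were between -0.29 and -0.19. Centring on the chromosome turned the log2 fold change of the Vcl sum from -0.06 ± 0.14 to 0.15 ± 0.09 (SE; unadjusted p = 0.677 and 0.145). No other member's sum turned its direction on centring.

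**Figure D3:**
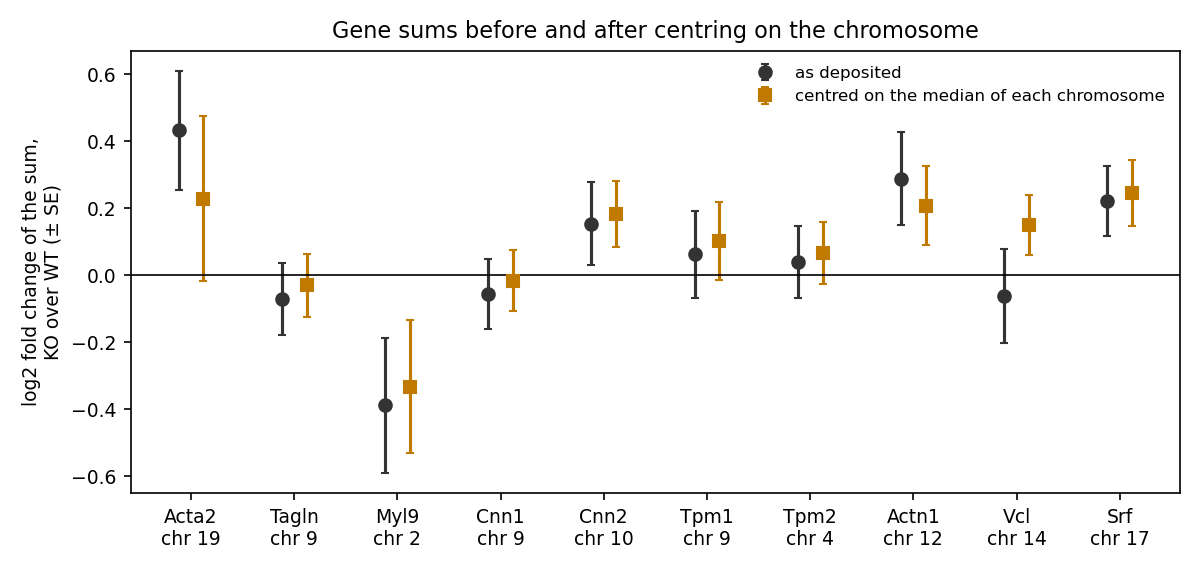
Log2 fold change of KO over WT, with its SE, of the summed value of each gene, as deposited (black) and after each library was centred on the median of each chromosome (orange). The value of Acta2 is 0.43 before and 0.23 after centring, that of Vcl is -0.06 before and 0.15 after, and that of Srf is 0.22 before and 0.25 after.

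Srf itself had the least spread between WT lines of the genes with higher KO sums: 939 and 944 in WT and 1071 and 1125 in KO, with no overlap. The log2 fold change of the sum was 0.22 ± 0.10 (SE), with an unadjusted p of 0.0761, or 0.25 ± 0.10 with 0.0436 when centred on chromosome 17, whose own median was -0.01. It was 0.15 (unadjusted p = 0.196) with equal library totals and 0.09 (unadjusted p = 0.422) after quantile normalization. Its promoter site (chr17:46555906-46556662), which holds the pair of boxes printed above, gave 466 and 464 in WT and 484 and 579 in KO (0.19 ± 0.13, SE; unadjusted p = 0.192). This was 0.03 after quantile normalization, 0.06 without KO replicate 2 and 0.32 without KO replicate 1. The intronic site with the third box (chr17:46552774-46553442) had 623 normalized counts per kb against 658 at the promoter and held 367 and 397 in WT and 454 and 448 in KO (0.24 ± 0.12, SE; unadjusted p = 0.0973). Both KO lines were above both WT lines at each. The remaining 2 sites were weak, and the 1 with the highest log2 fold change of all members (0.69 ± 0.57, SE), 9904 bp past the 5′ end, held 35 and 16 in WT and 56 and 27 in KO and covers the 5′ end of Cul9.

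**Figure D4:**
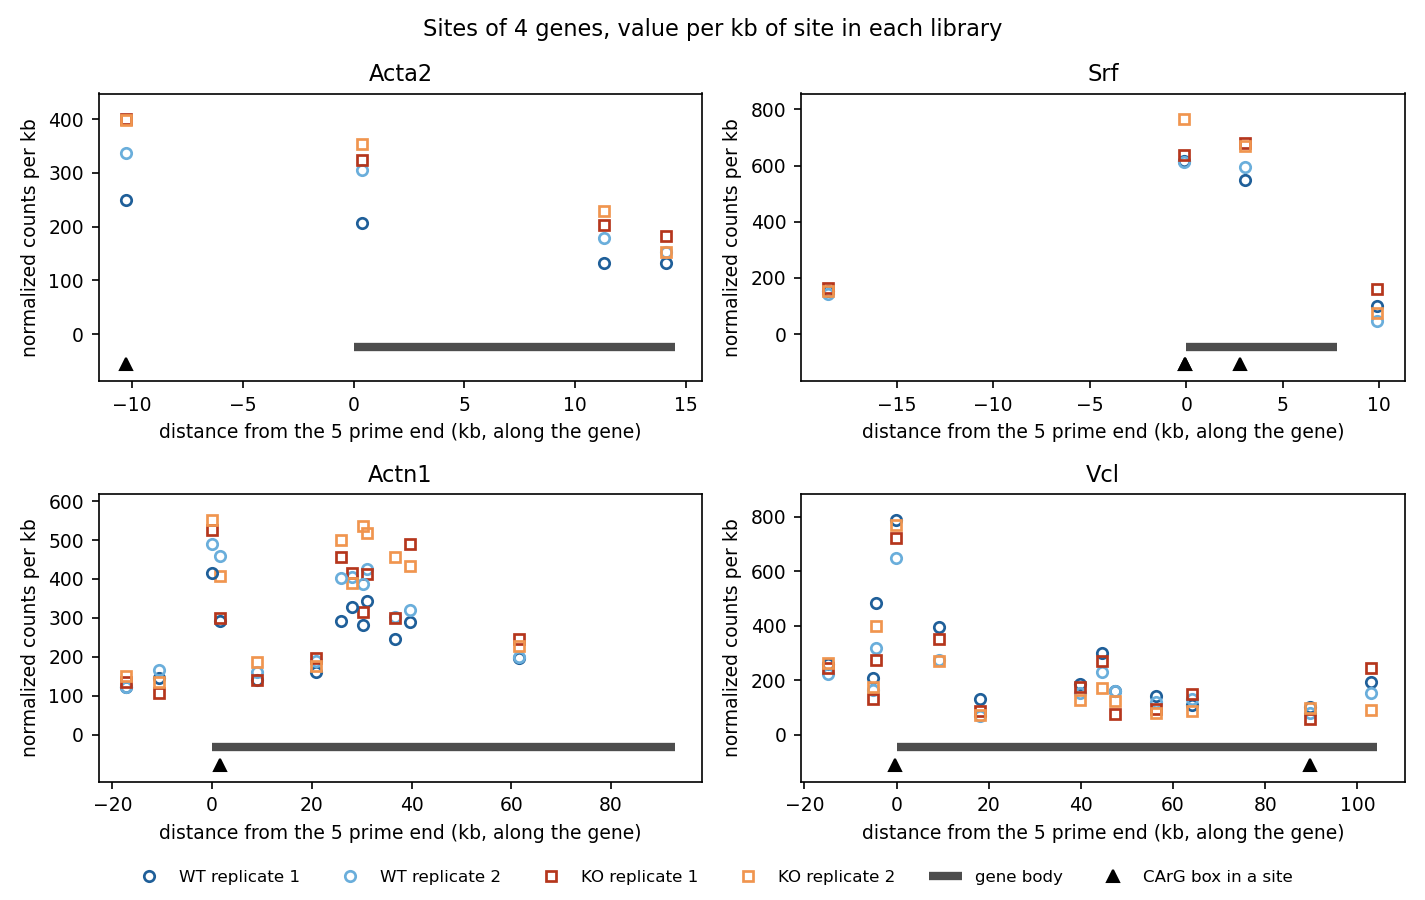
Normalized counts per kb of site in each library at the sites of Acta2, Srf, Actn1 and Vcl, against the distance of the site's centre from the 5′ end along the gene in kb; circles are WT, squares are KO, grey bars are gene bodies and triangles mark CArG boxes within sites. KO squares lie above WT circles at 3 of 4 sites of Acta2 and 2 of 4 of Srf, and WT replicate 1 is the highest library at the promoter of Vcl.

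The levels that follow were compared between sites per length, whereas the strongest site of each gene was picked on its total value. Member sites had a median of 274 normalized counts per kb against 119 over all sites, and the 9 promoter sites had 370 per kb against 271 over all sites at a protein-coding 5′ end. Per length, the promoter of Vcl stood at the 99th percentile of the latter, followed by Srf (97.7), Tpm1 (93.8), Actn1 (90.6), Tpm2 (74.9), Tagln (69), Acta2 (57.2), Cnn1 (23.8) and Myl9 (23.5). In the order by mean level, the ranges over the 4 libraries overlapped between neighbours except between Srf (613 to 765 per kb) and Tpm1 (511 to 611) and between Actn1 (415 to 552) and Tpm2 (342 to 391). Cnn1 and Myl9, with means of 182 and 180 per kb, stood at the lower end.

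At the 9 member sites with an exact CArG box the median log2 fold change was 0.06, with 5 above 0 and 4 below and none at an unadjusted p under 0.05, beside a median of 0.07 over all 2370 sites with a box. Over the 9 promoter sites the median was 0.09, with 6 above 0, beside 0.04 and 59% above 0 over all 9771 promoter sites. None of the 67 sites lay in a domain of lower accessibility, defined by the mean over 25 sites under -0.58, with windows up to 1 Mb apart joined. The share of all sites in such domains was not counted, so this result has no background beside it. The means over 25 sites at the members ran from -0.29 at Vcl to 0.28 at Acta2.

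Each of 6 regulators of the pathway had a site at its 5′ end. Mrtfa, the actin-regulated coactivator, had 413 and 459 in WT and 508 and 567 in KO (log2 fold change 0.30 ± 0.12, SE; unadjusted p = 0.049). Mrtfb, its close relative, had 277 and 235 in WT and 218 and 223 in KO (-0.21 ± 0.18, SE; unadjusted p = 0.293). Myocd, the coactivator of differentiated smooth and cardiac muscle, had a weak site, with 49 and 36 in WT and 14 and 35 in KO (-0.89 ± 0.54, SE; unadjusted p = 0.147). At these sites the genotypes did not overlap at any of the 3 coactivators, with KO above WT at Mrtfa and below it at the others. Over all sites at a protein-coding 5′ end, both KO values were above both WT values at 23.7% and below at 13.3%. Of the ternary complex factors, Elk1 had 240 and 249 in WT and 278 and 305 in KO, also without overlap (0.25 ± 0.16, SE; unadjusted p = 0.173). Elk3 had 117 and 109 in WT and 96 and 117 in KO (-0.09 ± 0.27, SE), and Elk4 had 427 and 396 in WT and 410 and 445 in KO (0.05 ± 0.13, SE), with overlap at both. None of the 6 was called. When all sites of a coactivator were summed, the genotypes overlapped for Mrtfa (2649 and 3362 in WT, 3861 and 3069 in KO). They also overlapped for Myocd (327 and 292 in WT, 368 and 299 in KO). For Mrtfb both KO sums (1254 and 1325) lay below both WT sums (1348 and 1469). Chromosome 15, which holds Mrtfa, had a median log2 fold change of 0.12.

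Of 46 further genes of the SRF, MRTF and contractile pathway, including these regulators, 0 were called in either direction on their sums and 2 (4.35%) had an unadjusted p under 0.05, where 4.15% of all genes did. One was Ccn2, the connective tissue growth factor gene, with 1390 and 1474 in WT and 1873 and 1783 in KO (0.35 ± 0.11, SE; unadjusted p = 0.0157). The other was Lmod1, which encodes the actin nucleator leiomodin 1, with 726 and 814 in WT and 914 and 969 in KO (0.29 ± 0.12, SE; unadjusted p = 0.0452), and the genotypes did not overlap at either. The sum was above 0 on the log2 fold change scale for 37 of the 46 (80.4%, against 60.5% of all genes), with a median of 0.15. Their 337 sites had 0 calls, 16 (4.75%, against 3.13% of all sites) with an unadjusted p under 0.05, and a median of 0.09. For 12 collagen and matrix genes of fibroblasts, which are not chosen for SRF, 11 sums (91.7%) were above 0 with a median of 0.12, and their 71 sites had 0 calls and a median of 0.11. The shares of 80.4% and 91.7% were not taken again with equal library totals or after quantile normalization. With equal totals the median over all sites was -0.06, and the member sums of Tpm1 and Tpm2 turned negative. Of single sites, 62.0% in the pathway list and 70.4% in the matrix list lay above 0. This share was 59.4% among the better covered sites and 50.7% among all sites. The part of coverage in these shares was not tested.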

How the data were processed

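Per the labels and the study's methods, the authors aligned paired-end ATAC-Seq reads to mm10 with BWA 0.7.12, called peaks with MACS2 2.1.0 and compared occupancy with DESeq2. Read filtering, reads matching several places and the Tn5 offset are not given in the sources used here. The deposited value of a site is a score: the authors divided its read count by a factor per library and rounded to whole numbers. Columns of the authors' own comparison (log2 fold changes, p-value and adjusted p-value) were not used. Depth was estimated from the spacing that this scaling leaves among low values, and reads or fragments could not be told apart.

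Because the scores are not counts, limma 3.58.1 with an intensity trend (R 4.3.3) was fitted to log2(value + 1) over all 82325 sites, KO against WT, and to gene sums of 17775 protein-coding genes. Both scripts were tested on simulated data. Fold changes of low sites are understated on this scale. Genes were from GENCODE release M21 on GRCm38, and 0 sites passed a chromosome end. Tables and sequences were read with pysam 0.24.0 and pandas 2.3.3 (Python 3.11.15). The call rule, an unadjusted p under 0.01 and a log2 fold change of 1 in either direction, uses the limits that the study states for primary MEFs. For all 10 genes, the sites named were the one at the 5′ end and the strongest, by mean value not divided by length. The 5 member sites with the lowest p overall were named too. Others were named after their values were seen. The members and lists were chosen with earlier results of these data known. Alternatives covered scaling, pseudocount, signal filter, site assignment and left-out libraries. P-values rest on the spread between libraries of 1 line each, in which line, library preparation and counting error cannot be told apart. In limma this spread was also drawn toward a trend shared over all sites or all sums.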

Additional observations from a re-analysis of the deposited data

How the results depend on the processing

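No member site or sum was called under any of 11 alternative settings. The median log2 fold change of the member sites, 0.07, was 0.0045 with each library scaled to the same total, -0.0113 after quantile normalization and 0.037 to 0.109 when 1 library was left out. Member sites without overlap between genotypes numbered 24, and 37 to 51 without 1 library, where 1 value faces 2. The split of 9 below and 15 above was 14 and 10 with equal totals, 12 and 9 with quantile normalization and 7 and 19 when centred on each chromosome. Sums kept their direction in 101 of 110 results and named sites in 117 of 126. With equal totals, the sums were -0.0059 for Tpm1 and -0.0272 for Tpm2, and the Vcl promoter was -0.0078. With quantile normalization, the sums were -0.0715 for Tpm1 and -0.0216 for Tpm2, the promoters -0.135 for Vcl and -0.1045 for Tpm1, and the Cnn1 site over Ecsit -0.0488. Centring gave 0.15 for the Vcl sum, and keeping only sites nearest to the member's TSS gave 0.1135 for the Cnn1 sum. Leaving out 1 library gave ranges of -0.0061 to 0.0885 for the Tpm2 sum, -0.2236 to 0.1014 for the Vcl sum, -0.0781 to 0.2031 for the Tpm1 sum, -0.0813 to 0.2025 for the Vcl promoter, -0.3493 to 0.0365 for the Tagln promoter, -0.043 to 0.214 for the Tpm1 promoter, -0.5112 to 0.1794 for the Cnn1 promoter and -0.0277 to 0.1777 for the Cnn1 site over Ecsit. The cause was not tested.

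No paired analysis was possible because the labels give no replicate numbers and the line names of the genotypes share only 1 number, 643. With 5680000 to 11400000 reads in sites and 2 lines per genotype, differences of the size of the SEs given could not be detected. Differences of several SEs could be missed too. The Actn1 intron site at 0.60 ± 0.16 (SE) was not called, since the call rule also needs a log2 fold change of 1.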
